A study of Mus musculus with 12 samples.

Results

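The Ebf2-EGFP- cells of the embryonic mouse cerebral cortex were followed from E13.5 to E15.5. Members were the libraries whose labels give the cells as Ebf2-EGFP negative at either stage, which made 2 libraries per stage, 4 of the 12 libraries of the series. The series sorted cortical cells by FACS into Ebf2-EGFP+ cells, which are preplate and Cajal-Retzius (CR) neurons, and the remaining Ebf2-EGFP- cells on 3 embryonic days, of which E11.5 was the first, and sequenced polyadenylated RNA. All cells came from Tg(Ebf2-EGFP)FB58Gsat mice, in which EGFP is driven by Ebf2 regulatory sequence, so the Ebf2-EGFP- cells are transgenic as well and were set apart by their lack of fluorescence. Each sort used pooled embryos, and the cells were untreated. Because the gate takes everything without EGFP, it holds progenitors, cortical plate neurons and any other cell of the dissected tissue.

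As background, radial glia line the ventricle of the cortex and divide there under Notch signalling, which keeps Hes genes on and proneural genes off. Their daughters become intermediate progenitors that express Eomes or migrate out as neurons into the cortical plate, deep layers before upper layers. New neurons switch off the cell cycle, build axons and start to assemble synapses. A falling progenitor transcript in bulk RNA may come from fewer progenitors or from less RNA per progenitor, and these cannot be told apart here.

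Levels are FPKM, the fragments of a transcript scaled to its length and to the mapped fragments of the library, and changes are differences of log2(FPKM + 1), E15.5 minus E13.5, with their standard error from limma. A gene was called when its Benjamini-Hochberg adjusted p was under 0.05. Of the 4859 genes of the table, mostly coding, 1053 were called higher (21.7%) and 1194 lower (24.6%) at E15.5, 46.2% in all, and the median change of all of them was -0.10. The table holds only genes that the authors had found to differ between the sorted populations in these libraries, so these shares describe that list and not the transcriptome.

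The spread between libraries was not small against the stage difference. Replicate 2 lay on the E15.5 side of replicate 1 at both stages in many genes: of the 1194 genes called lower, 965 (80.8%) were below replicate 1 in replicate 2 at both stages, against 46.9% of all genes. Without E13.5 replicate 1, 0 genes were called by limma (1574 at an unadjusted p under 0.05), and without E15.5 replicate 2, 1397 were called, 657 of them lower. No called gene changed its direction in either case, but leaving out a library cannot reverse a change where the stages do not overlap. Without E15.5 replicate 2, the variance of each gene came almost wholly from other genes of like level. That count therefore cannot be set against the fit of all 4 libraries. With 2 libraries a stage, the calls measure the spread between these sorts alone. E13.5 replicate 2 also held more of transcripts that oligo-dT selection should deplete: the ribosomal precursor Rn45s stood at 1736 and 4941 FPKM at E13.5 and at 1107 and 392 FPKM at E15.5. Its part in the other differences was not tested.

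The sort labels could be checked with Ebf2 itself. In Ebf2-EGFP- cells Ebf2 was at 1.54 and 1.05 FPKM at E13.5 and at 0.103 and 0.0644 FPKM at E15.5, while the Ebf2-EGFP+ libraries held 6.66 and 4.32 FPKM, then 2.83 and 5.14 FPKM. Within the Ebf2-EGFP- cells it was lower at E15.5 (log2 change -1.07 ± 0.14 SE, limma adjusted p = 0.0124). Reln, the secreted glycoprotein of CR neurons, moved the other way in the Ebf2-EGFP- cells, from 2.77 and 4.22 FPKM to 13.7 and 10.6 FPKM (1.56 ± 0.27). It remained far under the 399 and 925 FPKM of the Ebf2-EGFP+ libraries at E15.5.

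The markers given for these cells, Sox2, Hes5 and Mef2c, were all detected at both stages, and the progenitor markers moved against the neuronal marker. Sox2, the transcription factor of neural stem cells, stood at 144 and 90.5 FPKM at E13.5 and at 55.0 and 20.5 FPKM at E15.5. Hes5, a repressor of proneural genes and a direct readout of Notch, went from 113 and 34.7 FPKM to 16.1 and 6.03 FPKM. Mef2c, a transcription factor of maturing cortical neurons, went from 4.23 and 6.54 FPKM to 22.3 and 42.8 FPKM. In none of them did the stages overlap. The log2 changes were -1.73 ± 0.45 for Sox2 (limma adjusted p = 0.0234), -2.54 ± 0.60 for Hes5 (adjusted p = 0.0188) and 2.35 ± 0.35 for Mef2c (adjusted p = 0.0124). Without E13.5 replicate 1 the changes were -1.40, -1.70 and 2.08, and none of them passed the threshold. On GRCm38, Sox2 lies on the plus strand at chr3:34650405-34652461, Hes5 at chr4:154960923-154962371 and Mef2c at chr13:83504034-83667080.

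**Figure D1:**
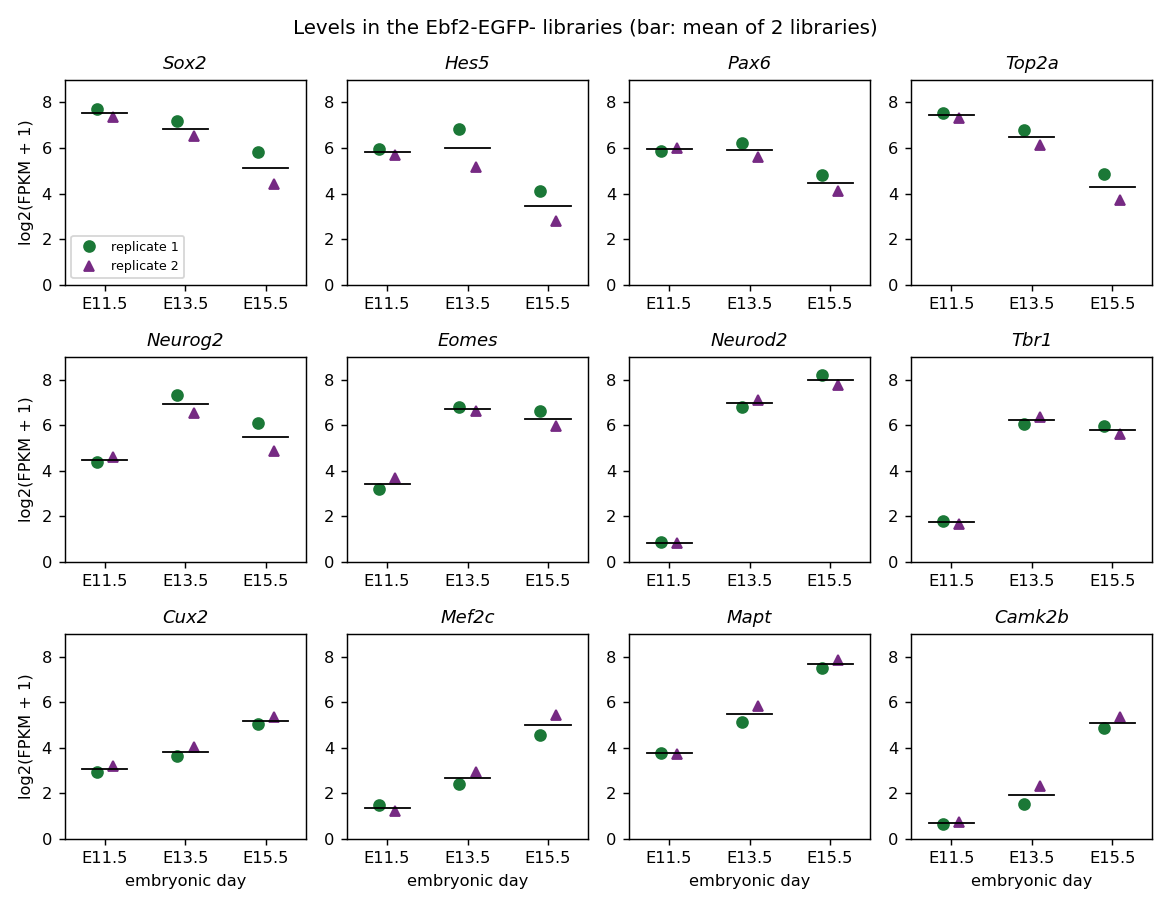
Level of 12 genes in each Ebf2-EGFP- library, as log2(FPKM + 1) against embryonic day, with circles for replicate 1, triangles for replicate 2 and a bar at their mean. Sox2, Hes5, Pax6 and Top2a were lower at E15.5, Cux2, Mef2c, Mapt and Camk2b were higher, and Eomes and Tbr1 had already come up between E11.5 and E13.5.

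Progenitor identity fell as a group. Of the 23 genes of apical progenitors (radial glia) on the list, all were in the table, 16 were called lower (69.6%, against 24.6% of all genes) and 0 higher, with a median log2 change of -1.41. The summed level of the list was 2590 and 1768 FPKM at E13.5 and 1368 and 776 FPKM at E15.5. Without E13.5 replicate 1, 0 of the 16 were called.

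The largest falls were in the factors that hold radial glia undifferentiated. Id4, which blocks proneural factors by binding their partners, went from 171 and 99.1 FPKM to 32.3 and 13.7 FPKM (-2.57 ± 0.42, adjusted p = 0.0124). Hes1, the second Notch-regulated repressor, went from 40.7 and 21.3 FPKM to 5.94 and 3.02 FPKM (-2.53 ± 0.38). Gas1, a co-receptor for Sonic hedgehog, fell by 2.22 on the log2 scale. Each of these had both E15.5 libraries below both E13.5 libraries. Among the patterning factors, Emx2 fell by 2.02, Gli3 by 1.68 and Pax6 by 1.46, Pax6 from 73.8 and 47.8 FPKM to 27.1 and 16.2 FPKM. Nr2e1, an orphan receptor of neural stem cells, fell by 1.74, and the intermediate filament Nes by 1.41.

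Not every radial glial gene fell beyond the spread. Lhx2, a selector of cortical identity, stood at 214 and 182 FPKM and then at 210 and 147 FPKM, and Emx1 at 109 and 86.2 FPKM and then at 108 and 54.7 FPKM. In these genes the stages overlapped (-0.17 ± 0.26 and -0.33 ± 0.33). Fabp7, a fatty acid binding protein of radial glia, was at 479 and 324 FPKM and at 294 and 188 FPKM. Its libraries did not overlap, but the change of -0.74 ± 0.33 did not pass (adjusted p = 0.0949), and Vim, the other filament protein of these cells, was likewise uncalled at -1.02 ± 0.38.

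Genes of the Notch pathway were more often called lower than higher. Of its 22 genes, 13 were called lower (59.1%, against 24.6% of all genes) and 2 higher (9.09%, against 21.7%). The median was -0.83. Of the ligands, Dll1 went from 53.0 and 45.6 FPKM to 11.97 and 8.70 FPKM (-2.16 ± 0.22, adjusted p = 0.0122), and Dll3 fell by 0.89. The replicates of Dll1 were close at both stages, so its change was large against its spread. Of the receptors, Notch1 fell by 1.12, Notch2 by 1.07 and Notch3 by 1.45. Lfng, a glycosyltransferase that tunes the receptors, fell by 2.11, and the target Hey1 by 1.78. Rbpj, the DNA-binding factor through which the receptors act, was at 47.1 and 42.7 FPKM and at 32.6 and 29.4 FPKM, a change of -0.52 ± 0.18 that was not called. The genes called higher were the ligand Jag2 (0.91 ± 0.26) and Rfng, another glycosyltransferase of the family (0.76 ± 0.20).

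Among the lists, the mitosis genes moved most uniformly. Of 44 mitosis genes in the table (46 on the list), 44 were called lower (100%, against 24.6% of all genes). Their changes ran from -2.17 to -1.19, with a median of -1.72. Their summed level was 1678 and 1114 FPKM at E13.5 and 518 and 268 FPKM at E15.5. Top2a, which untangles replicated chromosomes, went from 110 and 69.4 FPKM to 28.04 and 12.3 FPKM (-2.17 ± 0.40, adjusted p = 0.0129). Nusap1, a spindle protein, fell by 2.13, the mitotic cyclin Ccnb1 by 2.11 and the kinesin Kif4 by 2.01. Aurkb, a mitotic kinase, went from 33.8 and 20.0 FPKM to 8.78 and 3.65 FPKM.

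DNA replication genes followed closely. Of 43 in the table (45 on the list), 40 were called lower (93.0%, against 24.6% of all genes) and 0 higher. The median was -1.41. Mcm3, a subunit of the replicative helicase, went from 72.5 and 47.3 FPKM to 21.1 and 9.12 FPKM (-1.99 ± 0.39), and another subunit, Mcm5, from 69.0 and 41.9 FPKM to 20.4 and 12.1 FPKM (-1.71 ± 0.32). Tk1, the salvage kinase for thymidine, fell by 1.80 and Rrm2, a subunit of ribonucleotide reductase, by 1.75. In all 43 genes both E15.5 libraries lay below both E13.5 libraries, which was so in 44.8% of all genes. Across the whole table, the 10 genes that fell most and met the level rule also included Gmnn (-2.21 ± 0.41) and Dtl (-2.20 ± 0.32), which keep replication to a single round per cycle.

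Of 13 cyclins and kinase regulators in the table, 5 were called lower (38.5%, against 24.6% of all genes) and 2 higher (15.4%, against 21.7%). Ccnd2, the D cyclin carried by dividing progenitors, went from 179 and 111 FPKM to 62.7 and 38.6 FPKM (-1.50 ± 0.32), and Cdk2 fell by 1.70. The 2 higher genes, Cdk5r1 (1.25 ± 0.23) and Cdk5r2 (1.57 ± 0.24), encode activators of a kinase that acts in migrating neurons and not in the cycle.

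**Figure D2:**
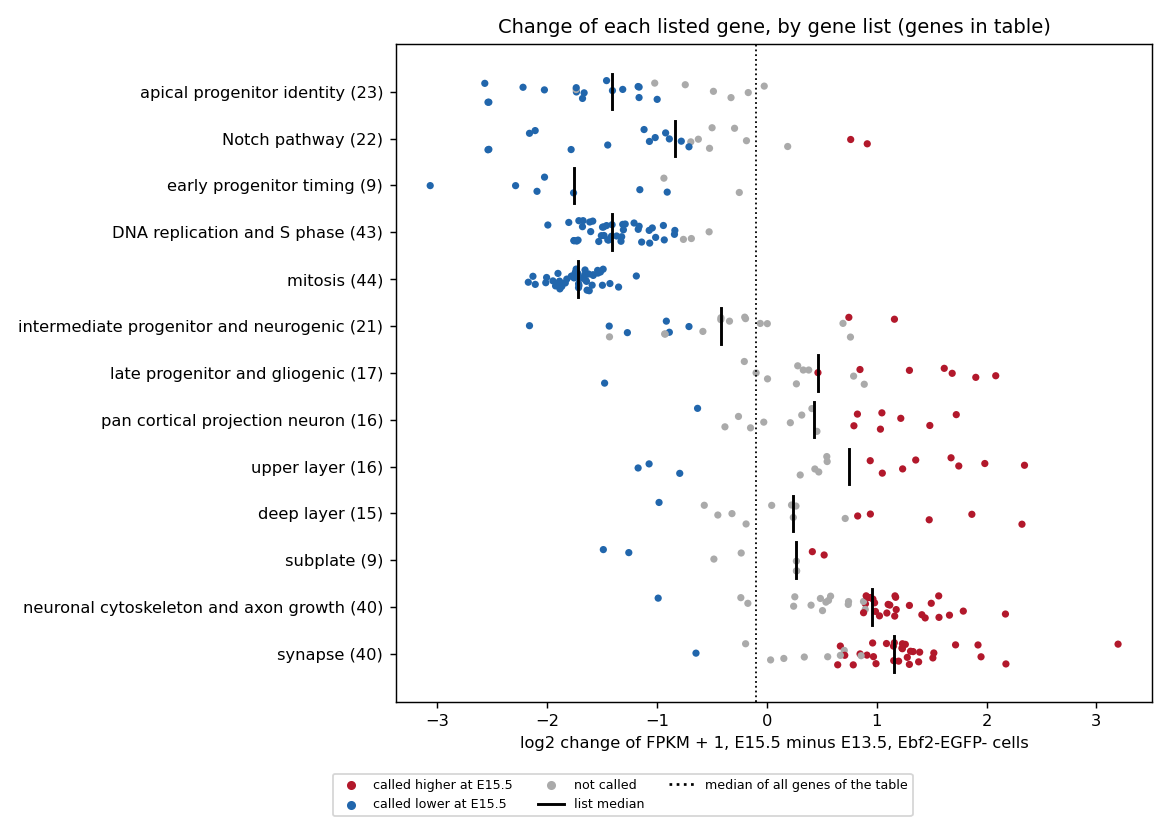
Change from E13.5 to E15.5 of each gene, as log2 of FPKM + 1, in 13 gene lists, with red for genes called higher, blue for genes called lower, grey for the rest, a bar at each list's median and a dotted line at the median of all 4859 genes. All mitosis genes lie left of -1, and most synapse genes lie right of the dotted line.

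The promoters of the falling groups are shown because their members moved together and cell cycle genes are known to share short promoter elements. Windows of 300 bases, from 250 before to 50 after each RefSeq start on GRCm38.p6, were searched on both strands for short elements. These were the cell cycle homology region (CHR, TTTGAA), E2F elements (TTTGGCGC or TTTCGCGC) and the RBPJ core of the Notch pathway (TGGGAA). A proneural E-box (CAGATG) was searched as well and is not shown. The CHR was in 31 of 40 windows of the mitosis genes called lower (77.5%), where 38 of the 44 genes had an entry, against 17.9% of all 32851 windows and 12.5% of the 4764 windows of genes in the table. The E2F letters were in 11 of 43 windows of the replication genes called lower (25.6%). They were in 0.813% of all windows and 1.57% of the windows of genes in the table. The RBPJ core was in 7 of 15 windows of the apical progenitor genes called lower (46.7%). In the Notch genes called lower it was in 3 of 13 (23.1%), close to the background. That was 25.6% of all windows and 22.5% of the windows of genes in the table. In lists of genes called higher, the share of the RBPJ core ran from 0 of 10 windows (upper layer) to 4 of 9 (cortical projection neurons, 44.4%). A share near 46.7% was thus not confined to falling genes. A match is a string of letters and not a shown binding site. In the windows below, each from 5′ to 3′ on the strand of its gene, capitals mark the matches, which are the RBPJ core in Hes5 (chr4:154960673-154960972, plus strand), the CHR in Top2a (chr11:99024140-99024439, minus strand) and Ccnb2 (chr9:70421505-70421804, minus strand), and E2F elements in Mcm5 (chr8:75109259-75109558, plus strand) and Mcm3 (chr1:20820263-20820562, minus strand).
Hes5: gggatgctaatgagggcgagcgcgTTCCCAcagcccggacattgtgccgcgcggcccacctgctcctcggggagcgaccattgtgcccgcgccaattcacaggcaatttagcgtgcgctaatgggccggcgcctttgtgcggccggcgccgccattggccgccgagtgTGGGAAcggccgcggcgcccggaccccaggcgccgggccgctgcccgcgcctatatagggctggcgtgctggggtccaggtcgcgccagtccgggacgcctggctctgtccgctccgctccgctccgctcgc
Top2a: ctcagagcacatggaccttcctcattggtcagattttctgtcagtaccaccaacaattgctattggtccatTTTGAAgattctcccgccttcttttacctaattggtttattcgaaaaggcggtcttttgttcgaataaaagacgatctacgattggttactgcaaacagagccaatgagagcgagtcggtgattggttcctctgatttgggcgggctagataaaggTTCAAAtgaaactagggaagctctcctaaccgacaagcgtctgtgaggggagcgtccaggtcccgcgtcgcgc
Ccnb2: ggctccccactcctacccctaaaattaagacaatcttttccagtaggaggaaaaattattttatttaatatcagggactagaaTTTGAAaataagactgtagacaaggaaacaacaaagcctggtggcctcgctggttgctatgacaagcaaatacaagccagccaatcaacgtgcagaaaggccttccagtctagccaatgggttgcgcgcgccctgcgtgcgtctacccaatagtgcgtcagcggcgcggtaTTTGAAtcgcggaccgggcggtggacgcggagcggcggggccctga
Mcm5: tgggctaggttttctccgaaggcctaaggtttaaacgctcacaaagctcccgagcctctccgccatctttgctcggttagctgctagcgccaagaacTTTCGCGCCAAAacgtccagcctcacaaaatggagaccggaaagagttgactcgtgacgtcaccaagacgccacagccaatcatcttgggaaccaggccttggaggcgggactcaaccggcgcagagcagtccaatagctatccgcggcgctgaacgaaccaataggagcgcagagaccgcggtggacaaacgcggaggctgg
Mcm3: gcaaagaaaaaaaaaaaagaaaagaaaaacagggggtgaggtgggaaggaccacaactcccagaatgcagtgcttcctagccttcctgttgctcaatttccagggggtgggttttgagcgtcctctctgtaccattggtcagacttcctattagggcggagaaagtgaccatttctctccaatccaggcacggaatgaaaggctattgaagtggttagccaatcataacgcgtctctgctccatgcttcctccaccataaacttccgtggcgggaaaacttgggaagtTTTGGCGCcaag

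Hes5 held the RBPJ core 226 and 82 bases before its start, in opposite orientations. Top2a held the CHR 179 and 23 bases before its start. In Mcm5 both E2F forms were found, on opposite strands, and their letters overlapped in the run shown in capitals. The transcripts of all 5 genes were called lower at E15.5, and Ccnb2, a cyclin of mitotic entry, went from 35.0 and 24.3 FPKM to 12.5 and 6.54 FPKM (-1.58 ± 0.33).

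**Figure D3:**
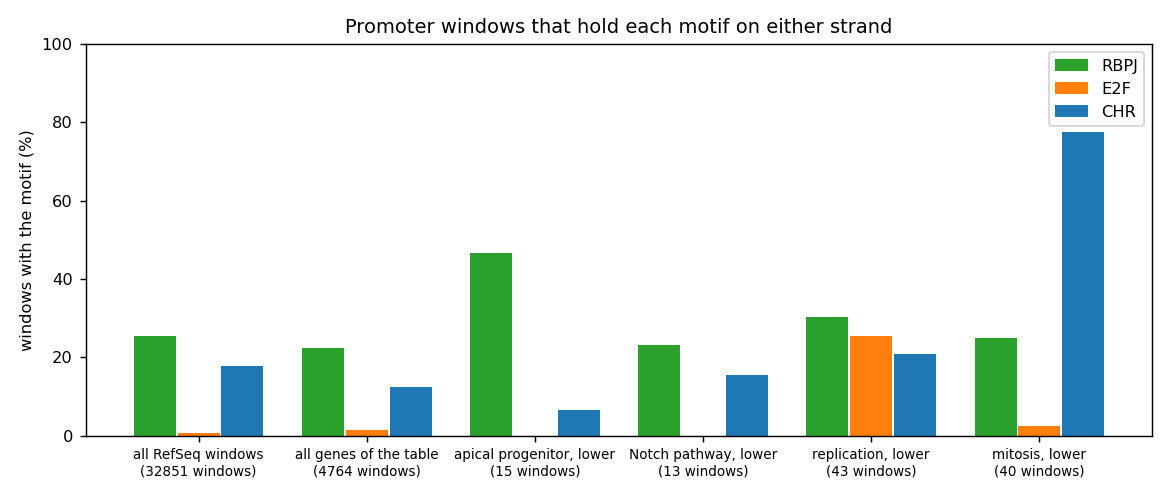
Percent of promoter windows that hold the RBPJ, E2F or CHR letters on either strand, for all RefSeq windows, all genes of the table and 4 lists of genes called lower. The CHR bar of the mitosis genes stands at 77.5% and the E2F bar of the replication genes at 25.6%.

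Most intermediate progenitor and neurogenic genes were not called. Of 21 genes, 6 were called lower (28.6%, near the 24.6% of all genes) and 2 higher (9.52%, against 21.7%). The summed level was 1682 and 1582 FPKM at E13.5 and 2287 and 1416 FPKM at E15.5. Eomes, the defining factor of intermediate progenitors, was at 110 and 96.0 FPKM at E13.5 and at 97.5 and 60.4 FPKM at E15.5, so the stages overlapped (-0.42 ± 0.27). Neurog2, the proneural factor that starts neurogenesis, went from 158 and 91.7 FPKM to 68.2 and 28.03 FPKM (-1.43 ± 0.44, adjusted p = 0.0361). Btg2, an antiproliferative gene of neurogenic divisions, had close replicates, at 28.9 and 29.2 FPKM and then 13.6 and 9.61 FPKM (-1.27 ± 0.22). The genes called higher, Pou3f2 (1.16 ± 0.21) and Tcf4 (0.75 ± 0.24), are transcription factors that stay on in young neurons.

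Side by side with E11.5, without a test, the groups had different courses. Eomes had been at 8.08 and 11.7 FPKM and Neurog2 at 19.9 and 23.0 FPKM in Ebf2-EGFP- cells at E11.5, so both were higher in the E13.5 libraries than in those of E11.5. The mitosis list summed to 2366 and 2155 FPKM at E11.5 and was lower at each later stage. The apical progenitor list at E11.5 summed to 2634 and 2275 FPKM, a range that the E13.5 libraries partly shared.

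**Figure D4:**
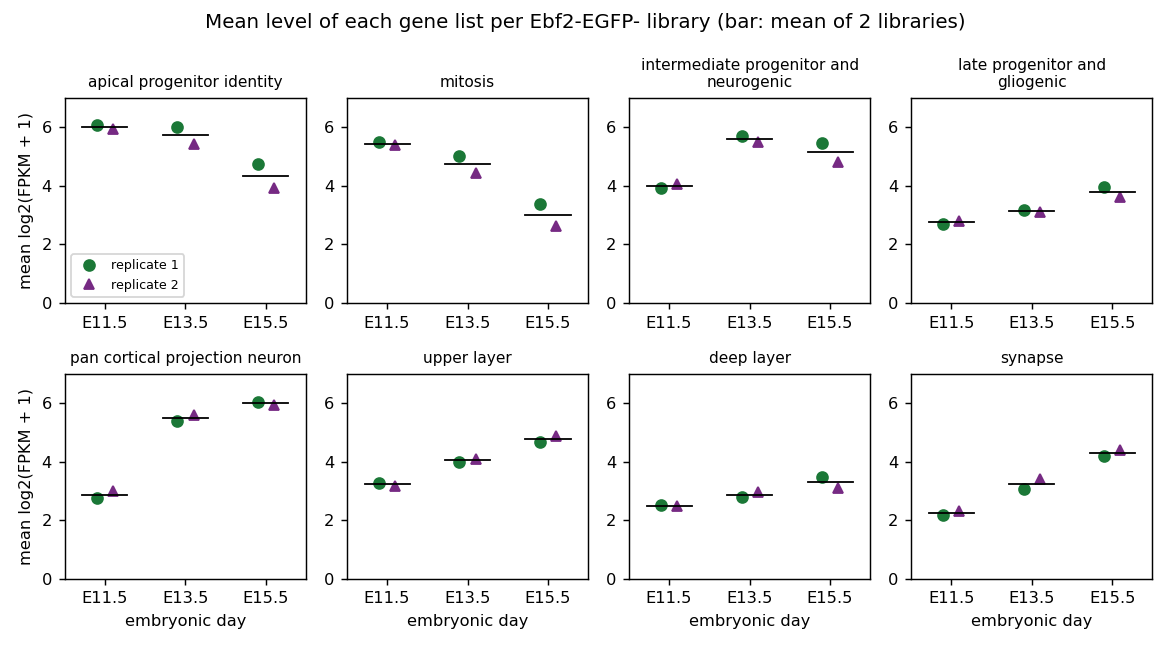
Mean log2(FPKM + 1) of 8 gene lists in each Ebf2-EGFP- library against embryonic day, with circles for replicate 1, triangles for replicate 2 and a bar at their mean. The mitosis list was at 5.01 and 4.45 at E13.5 and at 3.38 and 2.62 at E15.5, and the synapse list at 3.06 and 3.40 and then at 4.19 and 4.41.

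Most genes that mark the early, expanding state of progenitors were lower. Of the 9 in the table (14 on the list), 7 were called lower (77.8%, against 24.6% of all genes) and 0 higher. The median was -1.76. Crabp2, which carries retinoic acid, had the largest fall of all 4859 genes, from 24.4 and 11.97 FPKM to 1.31 and 1.04 FPKM (-3.06 ± 0.35, adjusted p = 0.0123), after 146 and 147 FPKM at E11.5. Hmga2, a chromatin protein of young stem cells, went from 9.60 and 4.69 FPKM to 0.839 and 0.378 FPKM (-2.29 ± 0.33), and had been at 161 and 117 FPKM at E11.5. In both genes the E13.5 libraries were already well under those of E11.5. The dorsal patterning factors Dmrt3 (-2.09 ± 0.50) and Dmrta1 (-2.02 ± 0.33) and the RNA-binding protein Igf2bp2 (-1.76 ± 0.25) fell with them.

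Some late progenitor and gliogenic genes rose. Of 17 in the table (21 on the list), 7 were called higher (41.2%, against 21.7% of all genes) and 1 lower, with a median of 0.47, and without E13.5 replicate 1 none was called. Tnc, a matrix glycoprotein of late radial glia, went from 2.94 and 2.46 FPKM to 14.7 and 14.6 FPKM (2.08 ± 0.23, adjusted p = 0.0122). Nfix, a factor that drives progenitors toward gliogenesis and is also found in neurons, went from 69.2 and 117 FPKM to 398 and 288 FPKM (1.90 ± 0.31). The zinc finger factor Zbtb20 (1.69 ± 0.31) and the secreted Sparcl1 (1.62 ± 0.26) rose as well. Olig1, a factor of the oligodendrocyte lineage, was called at very low levels, 0.173 and 0.130 FPKM and then 1.47 and 2.24 FPKM (1.30 ± 0.16). Aldoc, a glycolytic enzyme of astrocytes and their precursors, went against the list, from 123 and 84.5 FPKM to 59.2 and 21.7 FPKM (-1.48 ± 0.44, adjusted p = 0.0347). Its call was lost without the variance trend and without any single library other than E15.5 replicate 1.

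Cortical plate genes were more often called higher than lower. The table held 47 genes of cortical projection neurons (52 on the pan-cortical, upper layer and deep layer lists). Of these, 20 were called higher (42.6%, against 21.7% of all genes) and 5 lower (10.6%, against 24.6%). The median was 0.47. Without E13.5 replicate 1, 0 of the 20 were called.

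Upper layer genes had the larger median of the 3 lists, 0.75. Of 16, 8 were called higher (50.0%, against 21.7% of all genes) and 3 lower (18.8%, against 24.6%). Pou3f1, a POU domain factor, went from 9.65 and 9.95 FPKM to 33.5 and 37.1 FPKM (1.75 ± 0.19, adjusted p = 0.0122), and Cux2, which marks upper layer neurons and their progenitors, from 11.4 and 15.3 FPKM to 31.6 and 39.4 FPKM (1.36 ± 0.23). The stages were well apart in both. Inhba, a subunit of activin, rose by 1.68 ± 0.27 from a level under 1 FPKM. The 3 genes called lower were the guidance receptor Plxnd1 (-1.17 ± 0.24), the adhesion molecule Pvrl3 (-1.07 ± 0.23) and Rnd2 (-0.79 ± 0.23), a GTPase of the migration step that was still at 185 and 198 FPKM at E15.5.

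Deep layer genes did not move together. Of 15 in the table, 5 were called higher (33.3%, against 21.7% of all genes) and 1 lower (6.67%, against 24.6%). The median was 0.24. Without E15.5 replicate 1 the median was -0.25, and without E15.5 replicate 2 it was 0.76. The factors that define these layers were not called: Bcl11b was at 23.4 and 36.0 FPKM and then at 54.3 and 22.6 FPKM, Fezf2 at 43.6 and 42.3 FPKM and then at 85.8 and 30.1 FPKM, and Tbr1 at 66.1 and 81.7 FPKM and then at 60.4 and 47.7 FPKM. For Bcl11b and Fezf2 the E15.5 libraries lay on either side of those of E13.5. The genes that rose were Crym (2.32 ± 0.38), which binds thyroid hormone, the neurotensin receptor Ntsr1 (1.87 ± 0.32), the cofactor Ldb2 (1.48 ± 0.25), Crim1 (0.94 ± 0.26) and Nfe2l3 (0.83 ± 0.19). Ntsr1 and Crym mark particular classes of deep layer neuron. Diap3, a formin that also acts in cell division, was called lower (-0.98 ± 0.25).

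Of the genes shared by all cortical projection neurons, 7 of 16 were called higher (43.8%, against 21.7% of all genes) and 1 lower (6.25%, against 24.6%). Rbfox1, a neuronal splicing factor, went from 6.57 and 10.99 FPKM to 28.7 and 32.3 FPKM (1.72 ± 0.26), Myt1l, a repressor of non-neuronal genes, from 12.6 and 22.1 FPKM to 39.3 and 59.9 FPKM (1.48 ± 0.32), and Neurod2 from 110 and 137 FPKM to 298 and 219 FPKM (1.05 ± 0.25). Neurod6, a factor of the same family, was already at 257 and 322 FPKM at E13.5, after 0.779 and 1.54 FPKM at E11.5, and its 377 and 342 FPKM at E15.5 were not a called change (0.32 ± 0.25). Slc17a6, a vesicular glutamate transporter, was called lower, from 18.4 and 16.9 FPKM to 10.1 and 12.1 FPKM (-0.63 ± 0.20, adjusted p = 0.0434). That call was lost with median-of-ratios scaling (-0.48, adjusted p = 0.110) and with any of the 4 libraries left out.

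Subplate genes showed no shared direction, with 2 of 9 called higher and 2 lower (22.2% each, near the shares of all genes). Lpar1 (-1.49 ± 0.34), a lysophosphatidic acid receptor, and Ctgf (-1.26 ± 0.28), a matricellular protein, fell. Gabra5 and Kcnab1 rose by 0.52 and 0.41, both from under 1 FPKM, and neither was called without the variance trend.

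Structural genes of neurons rose widely. Of 40 genes of the neuronal cytoskeleton and of axon growth, 25 were called higher (62.5%, against 21.7% of all genes) and 1 lower. The median was 0.96. Mapt, the axonal tau protein, went from 34.1 and 56.5 FPKM to 178 and 228 FPKM (2.17 ± 0.28, adjusted p = 0.0124). The guidance receptor Robo1 rose by 1.79 and the microtubule regulator Stmn4 by 1.66. Genes already abundant at E13.5 were higher in both E15.5 libraries without being called, such as Tubb3, neuronal beta-tubulin, at 718 and 752 FPKM and then 1229 and 1523 FPKM (0.90 ± 0.34, adjusted p = 0.0652). Cntnap2, an axonal adhesion protein, was the gene called lower (-0.99 ± 0.24).

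Synaptic genes showed the broadest rise. Of 40 in the table (47 on the list), 31 were called higher (77.5%, against 21.7% of all genes) and 1 lower, with a median of 1.15. Their summed level was 488 and 642 FPKM at E13.5 and 1155 and 1289 FPKM at E15.5, after 225 and 253 FPKM at E11.5. Camk2b, the beta subunit of the calcium and calmodulin dependent kinase, went from 1.85 and 3.95 FPKM to 28.4 and 39.4 FPKM (3.20 ± 0.32, adjusted p = 0.0122). Camk2a, the alpha subunit, was the member called lower, from 2.46 and 2.28 FPKM to 1.29 and 1.03 FPKM (-0.64 ± 0.18). The scaffold Dlg2 (2.18 ± 0.32), the release regulator Cplx1 (1.95 ± 0.27), the postsynaptic scaffold Shank1 (1.92 ± 0.31) and the NMDA receptor subunit Grin2b (1.72 ± 0.30) were the next largest rises.

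Over the whole table, the genes that rose most were at low levels at E13.5. Dync1i1, an intermediate chain of dynein, went from 0.874 and 2.22 FPKM to 24.3 and 44.7 FPKM (3.79 ± 0.38, adjusted p = 0.0122), the largest rise among called genes that met the level rule. Clstn2, a synaptic cadherin, went from 1.15 and 3.49 FPKM to 21.8 and 54.9 FPKM (3.52 ± 0.50), and the adaptor Sla from 1.63 and 5.26 FPKM to 37.6 and 42.1 FPKM (3.33 ± 0.40). The proteoglycan Spock1 (2.65 ± 0.30), the adhesion molecule Opcml (2.63 ± 0.27), the lysyl oxidase Loxl1 (2.37 ± 0.26), the tachykinin precursor Tac2 (2.36 ± 0.48) and Gucy1a3 (2.34 ± 0.46), a subunit of guanylate cyclase, completed the 10 with Camk2b and Mef2c. The paper counts Clstn2 and Spock1 among its CR-specific genes, which were at least 2-fold higher in Ebf2-EGFP+ cells at all 3 stages. At the other end, the remaining genes were Tcf7l1 (-2.26 ± 0.41), a repressor of Wnt targets, and Dusp10 (-2.23 ± 0.22), a phosphatase of stress kinases whose E13.5 replicates stood at 15.4 and 15.6 FPKM and whose E15.5 replicates stood at 2.36 and 2.68 FPKM.

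Genes of other cell types were detected at both stages. Of 24 genes of the ganglionic eminences and interneurons in the table, 4 were called higher (16.7%) and 5 lower (20.8%), shares no larger than those of all genes, and their summed level was 274 and 224 FPKM and then 282 and 213 FPKM. Lhx6, the factor of migrating interneurons, went from 8.63 and 13.51 FPKM to 32.1 and 31.7 FPKM (1.48 ± 0.24), while Gsx2 (-0.83 ± 0.25), a factor of eminence progenitors, and the patterning factor Sp8 (-1.42 ± 0.29) fell. The CR list summed to 14.2 and 14.6 FPKM and then 26.7 and 18.9 FPKM. Of its 11 genes, 4 were called higher (36.4%, against 21.7% of all genes) and 2 lower (18.2%, against 24.6%). Trp73, a defining CR gene, stayed under 1 FPKM. The sums for endothelial cells and pericytes (10.6 to 14.0 FPKM, 8 of 19 genes in the table), meninges (24.7 to 41.3 FPKM, 12 of 16) and choroid plexus and hem (4.77 to 16.5 FPKM, 14 of 15) overlapped between the stages, and 2 of 17 microglial genes were in the table. Red cell genes were abundant, with sums of 572 and 461 FPKM at E13.5 and 305 and 1422 FPKM at E15.5. The part of these cells in the changes above was not tested.

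In the separate table of lncRNA transcripts none passed the adjusted threshold in limma, with 0 of 200 called. Here the lowest adjusted p was 0.0575, and 72 (36%) had an unadjusted p under 0.05, 44 of them higher and 28 lower. Other fits called from 0 to 85. The transcripts below were chosen after their values were seen. 2900079G21Rik, at chr9:112234277-112236020 on the plus strand and antisense within Arpp21, was at 1.34 and 1.76 FPKM and then at 7.85 and 5.29 FPKM (1.55 ± 0.25). Since strand use is not given in the sources used here, its reads and those of Arpp21 cannot be told apart where they overlap. Among the lower transcripts were 2610316D01Rik, 138 bases from Pcdh10, at 7.14 and 5.41 FPKM and then 2.05 and 2.05 FPKM (-1.24 ± 0.19), and AI504432, 1434 bases from Kcna3, at 14.1 and 13.2 FPKM and then 6.83 and 7.28 FPKM (-0.86 ± 0.16). The gene table also holds 48 of the 192 lncRNA genes, of which 6 were called higher and 9 lower there. Of all genes in the gene table, 21.7% were called higher and 24.6% lower. In it 2900079G21Rik was called at 1.51 ± 0.28 (adjusted p = 0.0131) and 2610316D01Rik at -1.26 ± 0.25 (adjusted p = 0.0138), so their calls depend on the table they are tested in. Of the 72, 41 had their nearest coding gene in the table, 25 of those genes were called, and 23 of the 25 moved in the same direction as the lncRNA.

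**Figure D5:**
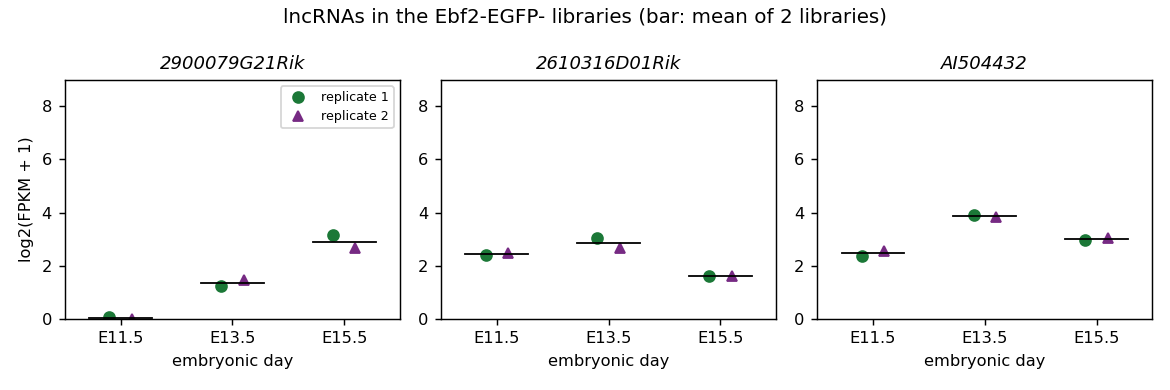
Levels of 3 lncRNAs in each Ebf2-EGFP- library, as log2(FPKM + 1) against embryonic day, with circles for replicate 1, triangles for replicate 2 and a bar at their mean. 2900079G21Rik was highest at E15.5, and 2610316D01Rik and AI504432 were lower at E15.5 than at E13.5.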

How the data were processed

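Polyadenylated RNA of FACS-sorted Ebf2-EGFP+ and Ebf2-EGFP- cortical cells was sequenced at each stage. The submitters' processing notes name TopHat2 2.0.8b, Cufflinks 2.2.0 and Cuffdiff, with mm10 as the build. The authors deposited FPKM for 4859 genes, mostly coding, and 200 lncRNA transcripts that they had found differential, together with the fold (ratio), p-value and q-value of their own comparisons between populations, which were not used. Depth is not recoverable from FPKM, so no counting error is given.

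Libraries were grouped by the labels. FPKM were used as deposited, with no further scaling. For each table, log2(FPKM + 1) of the 4 Ebf2-EGFP- libraries of E13.5 and E15.5 was fitted with limma 3.58.1 in R 4.3.3, with a variance trend and no covariates, and two-sided p-values were adjusted by Benjamini-Hochberg within the table. The fit was also run on simulated data with known changes and noise drawn independently for each gene and library. Such data lack the deviations that genes shared in these libraries, so they cannot show how the fit handles those. With 2 libraries against 2, an exact permutation test cannot pass the threshold, so gene lists are described by counts and medians. The members and gene lists were chosen with earlier results of these data known. Genes were named by rule: the 3 markers, the 10 largest called changes in each direction with no overlap of libraries and a mean of at least 5 FPKM at the higher stage, up to 5 called genes in each direction of each list, members called against their list, and list members given as uncalled. Some items that the rule would name are not reported here. Pax6, Gli3, Nr2e1, Nes, Notch1, Notch2, Notch3, Mcm5, Ccnb2, Rn45s and the lncRNAs lie outside the rule and were chosen after their values were seen. Alternatives were median-of-ratios scaling, pseudocounts of 0.1 and 0.01, a mean of at least 1 FPKM, no trend, 6 or 12 libraries, a replicate block, an adjusted p under 0.01, a 2-fold change, and each library left out. Positions came from GENCODE M21 (GRCm38) and promoter windows from RefSeq (GRCm38.p6), which held 3558 of the 4859 genes.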

Additional observations from a re-analysis of the deposited data

How the results depend on the processing

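No gene called in the gene table changed direction under any of the alternatives, but few of them could have shown it. The level filter, no trend, 6 or 12 libraries and the replicate block leave each change as it is. Where the stages do not overlap, another pseudocount or a library left out cannot reverse a change. The count of calls in the gene table, 2247, lay between 2147 and 2834 under both pseudocounts, the level filter, no trend, scaling and 6 libraries. With 12 libraries it was 3089. Scaling moved the higher share of calls from 46.9% to 55.4%. The count was 0 at an adjusted p under 0.01, in both directions and for the progenitor and cortical plate lists, since the lowest adjusted p was 0.0122, and 1005 with a 2-fold change added (438 higher, 567 lower). Leaving out each library gave 0 to 2165 calls, 0 to 906 higher and 0 to 1259 lower, 0 to 20 lower progenitor genes and 0 to 20 higher cortical plate genes, each 0 being without E13.5 replicate 1. Without it, 114 of the 129 features named in the text lost their call. The single library left was taken to vary like the other stage. Without E15.5 replicate 1 or 2, the variance of each gene came almost wholly from other genes of like level. The median degrees of freedom were 58.3 and 149 there, against 6.82 with all 4 libraries, so the counts cannot be compared. Uncalled genes changed sign with a library left out. Their ranges were -0.35 to 0.88 (Bcl11b), -0.81 to 0.16 (Emx1), -0.50 to 0.98 (Fezf2) and -0.43 to 0.087 (Lhx2). The causes were not tested.

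The lncRNA count of 0 became 22 with a mean of at least 1 FPKM, 35 with 6 libraries, 60 with 12 and 0 to 2 with a library left out. The replicate numbers are shared by the stages but not stated to mark a shared litter or day. With the replicate block, 3337 genes were called, 1837 of them lower, and 85 lncRNAs. Deviations of same-numbered libraries correlated at 0.447 over genes and 0.182 over lncRNAs. Depth is unknown, so precision is limited by 2 libraries a stage.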

Other observations

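Transcripts of embryonic globins fell in the Ebf2-EGFP- libraries. Of 7 erythroid genes in the table (18 on the list), 4 were called lower (57.1%, against 24.6% of all genes) and 1 higher (14.3%, against 21.7%). Hbb-y, an embryonic beta-like globin, went from 4.07 and 3.30 FPKM at E13.5 to 0.0854 and 0.123 FPKM at E15.5 (log2 change -2.08 ± 0.16 SE, limma adjusted p = 0.0122), after 737 and 1589 FPKM at E11.5. Hba-x, an embryonic alpha-like globin, went from 1.11 and 1.68 FPKM to 0.0897 and 0 FPKM (-1.19 ± 0.15). Hbb-b1, an adult beta globin, stood at 118 and 90.8 FPKM at E13.5 and at 196 and 1196 FPKM at E15.5 (2.21 ± 0.74, adjusted p = 0.0473), so its size rests on E15.5 replicate 2, without which it was 0.91. Its call was lost with a pseudocount of 0.01, with no trend, with 6 or 12 libraries and without either E13.5 library. Hbb-b2, its near-identical copy, went the other way, from 439 and 356 FPKM to 103 and 201 FPKM (-1.45 ± 0.35), and the split of reads between the copies is uncertain.

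Of 13 immediate early and stress genes, 3 were called higher (23.1%, near the 21.7% of all genes) and 2 lower (15.4%, against 24.6%). Junb, a subunit of AP-1, went from 3.32 and 5.90 FPKM to 16.7 and 11.51 FPKM (1.45 ± 0.31). The heat shock genes Hspa1a and Hspa1b, also near-identical copies, rose from under 1 FPKM by 1.53 each. Arc, an activity-regulated gene of neurons, was called lower at 3.44 and 2.68 FPKM and then 1.35 and 1.04 FPKM (-0.88 ± 0.20). The ganglionic eminence and interneuron list had 4 genes called higher (16.7%, against 21.7% of all genes) and 5 lower (20.8%, against 24.6%). Its median was -0.05. The lower ones included Sp8 and Gsx2. Besides Lhx6, the higher ones included the neuropeptide Npy, from 13.7 and 8.59 FPKM to 24.9 and 24.1 FPKM (1.11 ± 0.25), and the factor Maf (1.24 ± 0.24). Calb2, a calcium-binding protein of CR neurons and of some interneurons, rose from 0.460 and 0.138 FPKM to 2.29 and 2.02 FPKM (1.29 ± 0.17).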
